A study of Mus musculus with 7 samples.

Results

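The genes described here are 47 genes whose transcripts mark the parts of the cell cycle in which DNA is copied and cells divide. A set of 21 genes marks the S phase and a set of 26 genes marks the G2 and M phases. They were taken by symbol from a fixed list, and each was found 1 time among the 32285 genes of the count tables. Transcripts were counted in single cells of 7 libraries of mouse neural crest, as unique molecular identifiers (UMIs), each of which stands for 1 captured transcript molecule.

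All libraries came from mice labelled Swiss-Webster, which the study kept on a mixed background of that strain, and in which Cre recombinase, driven from Wnt1, had switched on a green fluorescent reporter at the ROSA locus. This lineage holds the neural crest and also part of the dorsal neural tube, and living fluorescent cells were sorted from pools of embryos. Controls had the genotype Wnt1-Cre/+;ROSA-EGFPf/+ and gave 1 library at embryonic day (E) 8.5, 1 at E9.5 and 2 at E10.5. The mutant group gave 1 library at E9.5 and 2 at E10.5, carried the same Cre and reporter, and is called Tbx1 null in the sample titles, although the genotype field of the same samples reads Wnt1-Cre/+;Tbx1+/-;ROSA-EGFPf/+. The study's own listing of the libraries gives Tbx1-/- for this group. Tbx1 encodes a transcription factor of the pharyngeal mesoderm and endoderm, and its level in these sorted cells was 0.446 to 4.99 CPM (UMIs of a gene scaled to a common total) in the 7 libraries, so it did not check the genotype. The anterior part of the embryo was taken at E8.5, and the pharyngeal region with the heart at E9.5. At E10.5 the first arch was left out, so stage and dissected region cannot be told apart. Libraries were made with the v2 kit at E8.5, with the v3 kit for the null at E9.5 and replicate 1 of the null at E10.5, and with the v3.1 kit otherwise.

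A dividing cell passes through a gap phase (G1), DNA synthesis (S), another gap (G2) and mitosis (M). At entry into S phase, E2F transcription factors switch on genes for the replication machinery. Genes of G2 and M are kept silent early in the cycle by a repressor complex that binds CHR elements in their promoters, and are switched on later, often with the help of NF-Y, which binds CCAAT boxes. Neural crest cells and neural progenitors proliferate, and neurons leave the cycle as they differentiate.

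To show these elements, the promoters of 2 S genes, of 1 gene with both kinds of element and of 3 G2/M genes are printed. They are examples and need not stand for their lists. Each runs from 250 bases before to 30 bases into the transcript in RefSeq on the build GRCm38.p6 and is read along the strand of the gene. Capitals mark matches to the E2F motif TTTNNCGC, the CHR motif TTTGAA or the CCAAT box, on either strand. Mcm3 and Mcm7 encode subunits of the replicative helicase, Cdk1 the kinase that drives mitosis, Top2a the topoisomerase that untangles sister chromatids, Ccnb2 a cyclin partner of Cdk1, and Cdc20 an activator of the ligase that ends mitosis.
Mcm3 (chr1:20820283-20820562, minus strand): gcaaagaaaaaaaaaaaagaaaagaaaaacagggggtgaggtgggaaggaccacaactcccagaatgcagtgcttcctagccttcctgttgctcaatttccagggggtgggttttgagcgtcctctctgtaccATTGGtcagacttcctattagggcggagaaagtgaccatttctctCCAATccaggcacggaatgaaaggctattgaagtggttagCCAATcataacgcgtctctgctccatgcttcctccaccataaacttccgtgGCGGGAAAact
Mcm7 (chr5:138171854-138172133, minus strand): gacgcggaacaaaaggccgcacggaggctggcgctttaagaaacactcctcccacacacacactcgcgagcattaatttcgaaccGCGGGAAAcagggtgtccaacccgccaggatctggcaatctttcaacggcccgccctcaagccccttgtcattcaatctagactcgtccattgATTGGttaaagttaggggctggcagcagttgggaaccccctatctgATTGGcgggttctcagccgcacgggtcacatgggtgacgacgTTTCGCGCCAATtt
Cdk1 (chr10:69352883-69353162, minus strand): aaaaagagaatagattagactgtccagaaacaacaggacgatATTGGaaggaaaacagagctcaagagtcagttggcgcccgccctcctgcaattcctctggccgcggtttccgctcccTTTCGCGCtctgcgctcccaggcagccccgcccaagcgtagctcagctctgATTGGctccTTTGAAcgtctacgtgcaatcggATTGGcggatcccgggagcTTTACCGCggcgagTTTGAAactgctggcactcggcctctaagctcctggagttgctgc
Top2a (chr11:99024160-99024439, minus strand): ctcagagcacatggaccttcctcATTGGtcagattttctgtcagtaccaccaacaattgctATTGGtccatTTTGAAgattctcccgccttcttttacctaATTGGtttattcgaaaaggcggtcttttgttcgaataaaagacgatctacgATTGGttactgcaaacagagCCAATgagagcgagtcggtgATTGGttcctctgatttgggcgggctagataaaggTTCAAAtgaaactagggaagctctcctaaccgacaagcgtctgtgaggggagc
Ccnb2 (chr9:70421525-70421804, minus strand): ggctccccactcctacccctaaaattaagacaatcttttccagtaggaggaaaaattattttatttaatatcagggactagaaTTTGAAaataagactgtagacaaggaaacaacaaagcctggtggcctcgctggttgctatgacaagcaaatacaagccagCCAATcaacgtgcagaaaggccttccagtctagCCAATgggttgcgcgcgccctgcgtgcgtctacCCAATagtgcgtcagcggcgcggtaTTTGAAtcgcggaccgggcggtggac
Cdc20 (chr4:118437314-118437593, minus strand): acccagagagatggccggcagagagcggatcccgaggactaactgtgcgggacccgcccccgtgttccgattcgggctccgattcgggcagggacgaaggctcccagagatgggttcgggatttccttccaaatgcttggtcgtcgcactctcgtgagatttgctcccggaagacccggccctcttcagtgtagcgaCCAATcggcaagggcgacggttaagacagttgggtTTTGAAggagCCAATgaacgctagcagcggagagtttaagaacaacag
The Mcm3 and Mcm7 windows held E2F and CCAAT matches and no CHR match, the Cdk1 window held all 3 motifs, and the Top2a, Ccnb2 and Cdc20 windows held CHR and CCAAT matches and no E2F match. Promoter sequences were matched for 41 of the 47 genes, and those of Aurkb, Ccne2, Mcm4, Tpx2, Ccna2 and Gins2 were not analysed here. The E2F motif stood in the windows of 7 of 18 S genes (38.9%) and of 2 of 23 G2/M genes (8.70%), against 4.94% of all 27025 promoter windows. The CHR motif stood in 2 of the 18 S genes (11.1%) and in 15 of the 23 G2/M genes (65.2%), against 17.4% of all windows. A CCAAT box stood in 11 S genes (61.1%) and in 19 G2/M genes (82.6%), against 36.6% of all windows. A CHR match together with a CCAAT box was found in 13 of the 23 G2/M genes (56.5%) and in 6.54% of all windows. The windows of E2f1, which encodes an E2F factor itself, and of Ccne1, which encodes the cyclin E1 that brings cells into S phase, held none of the 3 motifs. An E2F match and a CCAAT box can share bases, as at the end of the Mcm7 window. A match is a description of the letters and not a measured binding site.

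Between 5587 and 9555 cells were kept per library, 53276 in all. Libraries held 140264662 to 234844769 UMIs, and the median UMIs of kept cells ranged from 14796 to 22878. Any pair of libraries shared 0 to 26 cell barcodes. Cells were put into 4 classes by marker genes that are not cell cycle genes: mesenchymal (Twist1, Prrx1, Prrx2 and Pdgfra), Sox10, neural progenitor (Sox1, Sox2, Sox3 and Pax6) and neuronal (Tubb3 and Stmn2, at least 3 UMIs). Cells that met no gate stayed unassigned, 30.1% of kept cells at E8.5 and 8.29% to 14.0% in the other libraries. The Sox10 class held 106 to 871 cells per library. Independent neuronal markers (Elavl3, Dcx, Map2, Nefl and Nhlh1) summed to 697 to 1735 CPM in the neuronal cells of E10.5, to 136 and 221 CPM at E9.5 and to 30.1 CPM at E8.5. Cells that pass the neuronal gate at E8.5 therefore hardly carried neuronal transcripts, and results on that class were also computed without E8.5. Replicate 2 of the null at E10.5 stood apart: its mesenchymal cells held 55.8 CPM of the neuronal markers, 8.87 CPM of haemoglobin transcripts and 181 CPM of the stress genes Fos, Jun, Egr1 and Hspa1a, against at most 16.0, 0.9 and 119 CPM in the other 6 libraries. Results between genotypes were therefore also computed without it.

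Transcripts of both phases were measured in every class at every stage. In mesenchymal cells the S genes summed to 3802 CPM at E8.5, to 3572 and 3246 CPM in control and null at E9.5, to 2558 and 2325 CPM in the controls of E10.5 and to 2886 and 1978 CPM in the nulls of E10.5. The G2/M genes summed to 4246, 4328 and 4699, 3958 and 4214, and 4278 and 3230 CPM in the same order. The S sum was thus lower in each library of E10.5 than in any earlier library, and the G2/M sums of the 4 libraries of E10.5 also lay below both of E9.5. In neural progenitors the G2/M genes summed to 4282 CPM at E8.5 and to 3651 to 5183 CPM later. Neuronal cells had the lowest S sum of the 4 classes in control replicate 2 of E10.5, at 890 CPM, and 1622 to 2294 CPM in the other 3 libraries of E10.5. These levels were scaled by TMM over all sums of a library and class with 30 or more cells. In such sums, fewer cells with a transcript and fewer transcripts per cell cannot be told apart.

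**Figure D1:**
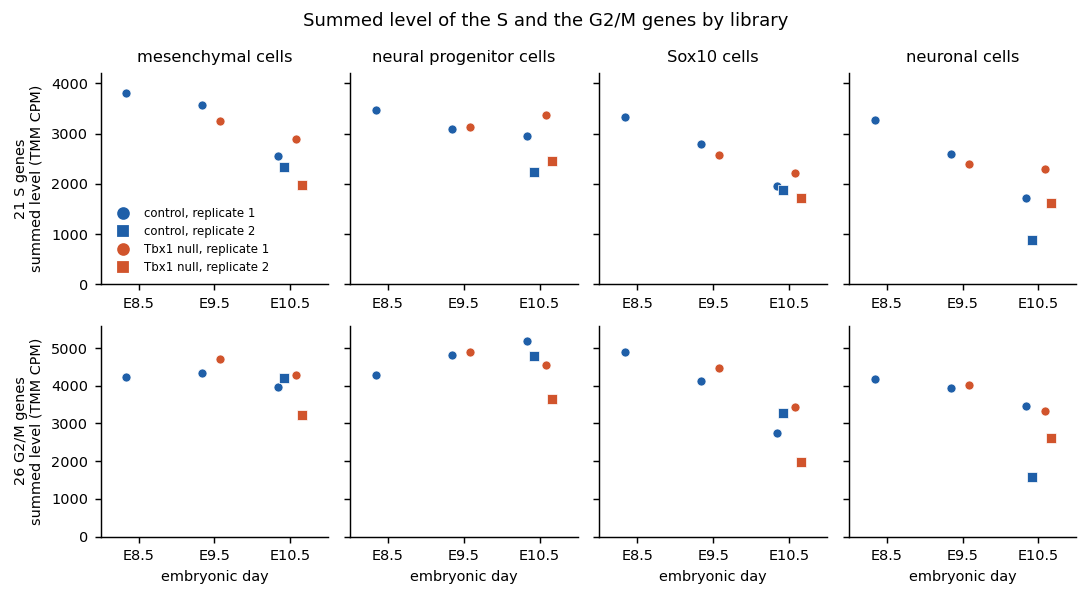
Summed level of the 21 S genes and of the 26 G2/M genes in each library, for mesenchymal, Sox10, neural progenitor and neuronal cells (TMM-scaled CPM on the vertical axis, 1 point per library). Mesenchymal S sums are 1978 to 2886 CPM at E10.5 and 3246 to 3802 CPM before.

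Most mesenchymal cells carried several of these transcripts. After each cell was thinned to 5000 UMIs, at least 5 UMIs of G2/M genes were found in 96.2% of mesenchymal cells at E8.5, in 98.5% and 98.2% in control and null at E9.5, in 85.9% and 86.9% in the controls of E10.5, and in 92.6% and 74.0% in the nulls of E10.5. The 2 nulls of E10.5 stood on either side of the controls. For S genes the shares were 98.8%, 98.9% and 97.7%, 92.2% and 91.3%, and 97.2% and 87.3%. In cells that passed the neuronal gate the share with 5 G2/M UMIs was 92.7% in the E8.5 library, 78.4% and 73.3% in those of E9.5, and 43.9%, 22.4%, 57.3% and 48.9% in those of E10.5. That gate also takes cells with progenitor transcripts, so these shares are no background. Cells of E10.5 with 30 or more UMIs of Tubb3 and Stmn2, the most neuronal transcript of the bins used here, had shares of 0.2% and 1.0% in the controls and 1.8% and 3.7% in the nulls. Without thinning the mean share over both E10.5 controls was 98.7% of mesenchymal cells for S genes and 93.2% for G2/M genes, so the shares depend on depth, and from 22 to 423 cells per library were too shallow to be thinned. Median depth was 16383 to 25312 UMIs in mesenchymal and 8922 to 21550 UMIs in neuronal cells.

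Single genes were found in fewer cells. At 5000 UMIs per cell a UMI of Mki67 was found in 16.9% of mesenchymal cells of E8.5, in 34.3% and 38.3% in control and null of E9.5, and in 46.2%, 53.4%, 43.3% and 45.9% in the libraries of E10.5 (controls, then nulls). Top2a was found in 52.0%, then in 58.5% and 60.5%, then in 65.8%, 71.3%, 66.2% and 61.5% of the same cells. For both genes the E8.5 library had the lowest share, and each library of E10.5 lay above both of E9.5. Pcna went the other way, with 86.1% in the E8.5 library, 75.5% and 81.1% in those of E9.5, and 67.8%, 62.9%, 70.3% and 51.7% in those of E10.5. Across the 47 genes in control replicate 1 of E10.5 the share ran from 6.3% for E2f8 to 76.7% for Birc5. In the neuronal cells of E10.5 Mki67 was found in 15.7% to 32.7%, and Pcna in 45.5%, 24.6%, 50.1% and 40.1%, each below the share in mesenchymal cells of the same library. E2f1 had the opposite order, with 13.5%, 9.5%, 14.5% and 16.6% of mesenchymal and 32.4%, 19.1%, 34.8% and 39.4% of neuronal cells of E10.5. These shares are descriptions with no test over cells.

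Within mesenchymal cells the 47 genes were ordered by phase. Cells were called S only or G2/M only from the other genes of both lists, leaving out the gene in question, at 15 or more S UMIs with under 10 G2/M UMIs, or at 20 or more G2/M UMIs with under 10 S UMIs. All 21 S genes had a median log2 ratio of G2/M-only over S-only cells below 0, and all 26 G2/M genes had one above 0, over 7 libraries. The order was reversed in at least 1 library for the S genes E2f8 (highest ratio 0.68) and Cdt1 (highest 0.13) and for the G2/M gene Bub1b (lowest -0.02). Among the G2/M genes the ratio was largest for Nusap1, which bundles spindle microtubules (4.17), for Ube2c, a ubiquitin-conjugating enzyme of mitotic exit (3.63), and for Kif23, a motor of cytokinesis (3.31). It was smaller for Mki67, which coats mitotic chromosomes (1.95), for Cdk1 (1.45), for Top2a (1.35) and for the cyclin gene Ccnb2 (0.92). Among the S genes Ung, a uracil-DNA glycosylase (-4.19, range -5.12 to -2.41), Ccne2 (-3.33), the origin licensing factor Cdc6 (-2.86) and Ccne1 (-2.11) differed most. Rrm1 (-0.11) and Tyms (-0.23), both needed to make deoxynucleotides, hardly differed between the 2 kinds of cell. In control replicate 1 of E10.5 G2/M-only cells were deeper, at a median of 25089 UMIs, than S-only cells (21359) and than cells low in both lists (15366). In the control of E9.5 G2/M-only and S-only cells had 25270 and 25289 UMIs. The ratios are descriptions with no test over cells.

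Neuronal cells were compared with neural progenitors of the same library. Of the 47 genes, 35 were lower in neuronal cells (18 S and 17 G2/M genes) and none was higher (edgeR, adjusted p under 0.05, 7 libraries), against 43.1% of all 13135 genes called in either direction and 21.5% called lower. Median log2 differences were -0.57 for the S genes and -0.51 for the G2/M genes, and -0.004 for all genes. The neuronal gate did not separate neurons from progenitors sharply. Markers of neural progenitors that no gate used (Zic1, Nes, Hes5 and Msi1) summed in neuronal cells to 191 CPM at E8.5, to 402 and 352 CPM in control and null of E9.5, and to 931, 357, 644 and 736 CPM at E10.5 (controls, then nulls). In progenitors they summed to 233, 754 and 706, and 1492, 1270, 1276 and 1423 CPM. At E9.5 and at E8.5 these sums in neuronal cells were above those of the independent neuronal markers. The part of progenitor transcripts in the differences was not tested.

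Kif23 was at 47.5 and 41.2 CPM in progenitors and neuronal cells of E8.5, at 60.9 and 36.4 in the control of E9.5 and at 57.1 and 35.1 in its null. The pairs were 79.2 and 42.5, and 70.9 and 18.4, for the controls of E10.5, and 63.7 and 38.5, and 72.6 and 34.1, for the nulls. It was lower in the neuronal cells of each library, by -0.89 ± 0.17 (log2 ± SE, adjusted p = 0.0046). Mki67 and Top2a fell by 0.82 ± 0.18 (adjusted p = 0.0085) and by 0.82 ± 0.16 (0.0055). Among the replication genes Pcna, the sliding clamp, fell by 0.76 ± 0.16 (adjusted p = 0.0075), the helicase subunit Mcm5 by 0.53 ± 0.15 (0.019), and the ribonucleotide reductase subunit Rrm2 by 0.63 ± 0.17 (0.018). The repressor E2f8 fell by 0.82 ± 0.18 (adjusted p = 0.0087), and the E cyclins Ccne2 and Ccne1 by 0.80 ± 0.20 and 0.63 ± 0.16. Cdk1 fell by 0.55 ± 0.17 (adjusted p = 0.028). Its partner Ccnb1 (-0.46 ± 0.17, adjusted p = 0.059) and Cdc20 (-0.25 ± 0.17, 0.25) did not pass the test. E2f1 did not follow the other S genes: at E10.5 it was at 76.9, 50.5, 84.3 and 96.5 CPM in progenitors and at 82.4, 38.4, 84.3 and 97.8 CPM in neuronal cells, a difference of -0.07 ± 0.06 (adjusted p = 0.37). The levels of E2f1 in both classes overlapped.

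Other genes of the pathway moved in the same comparison. All 21 other S genes and 19 of 24 other G2/M genes were lower, and 10 of 12 G1 genes were lower. Of 8 tested inhibitors of the cycle 5 were higher, among them the growth arrest gene Gadd45g (2.56), the kinase inhibitor Cdkn1c (1.90) and the antiproliferative gene Btg2 (1.22), and 2 were lower, among them Cdkn2c (-0.99). Leaving out E8.5 gave 41 lower cell cycle genes, and leaving out 1 library gave 24 to 41, where 13.5% to 24.4% of all genes were lower. Where neuronal cells had to hold 20 UMIs of Tubb3 and Stmn2, 46 of the 47 were lower, the median difference was -1.99, and 34.9% of all genes were lower.

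**Figure D2:**
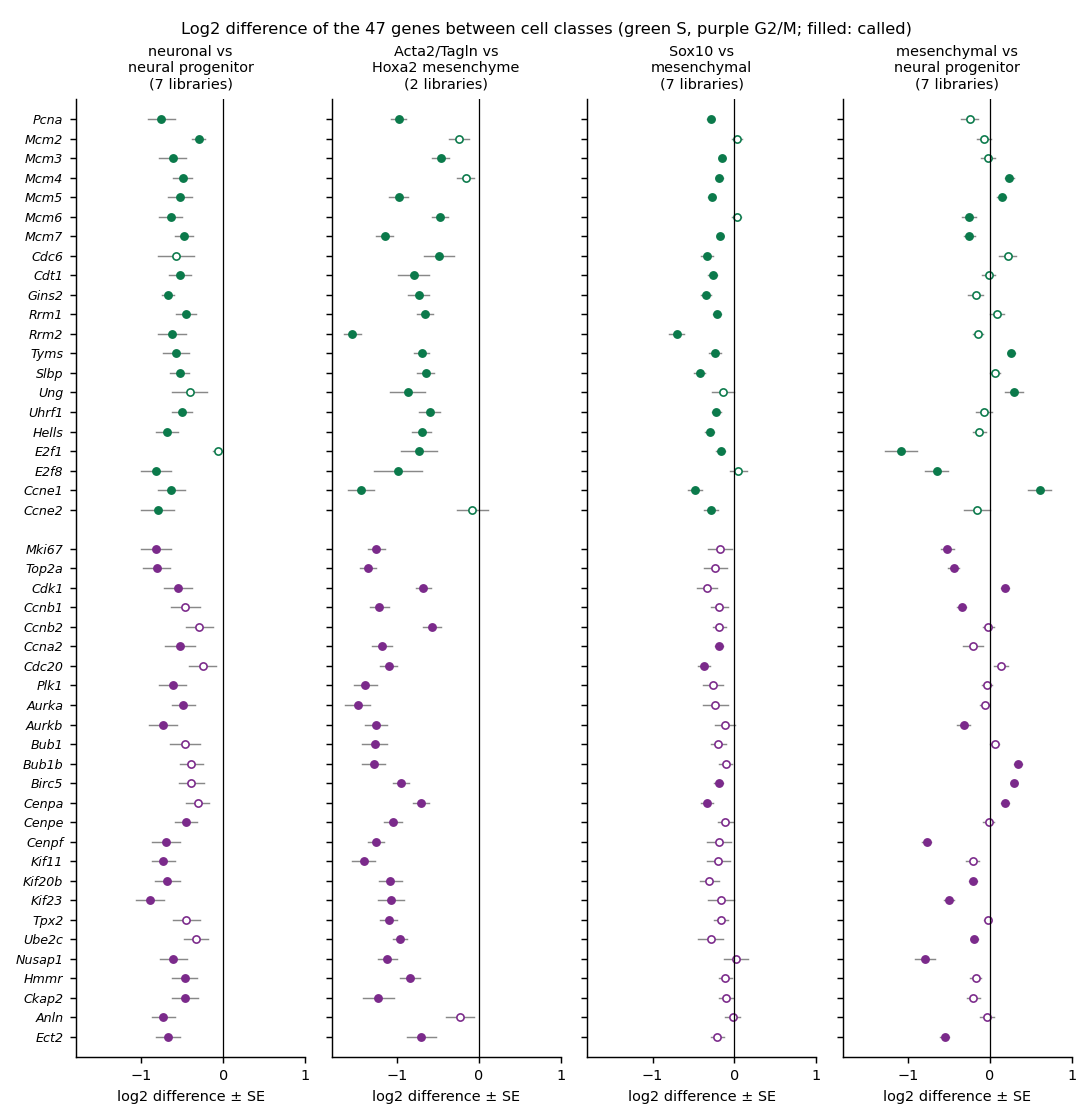
Log2 difference of each of the 47 genes with its standard error in 4 comparisons between cell classes of the same library, filled points having an adjusted p under 0.05 (edgeR). The neuronal and Acta2/Tagln panels hold 35 and 43 filled points, all below 0.

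Within neuronal cells the G2/M sum fell with the amount of neuronal transcript. Neuronal cells of E10.5 were divided by their Tubb3 and Stmn2 UMIs after thinning into cells with 1 to 2, 3 to 9, 10 to 29 and 30 or more, and CPM were taken over all UMIs of the cells in a bin. In control replicate 1 the G2/M genes summed to 5887, 4065, 457 and 86.1 CPM along the 4 bins, and in control replicate 2 to 4160, 2664, 430 and 84.1 CPM. In the nulls they summed to 4805, 3988, 1629 and 187 CPM and to 4367, 3831, 1341 and 347 CPM. The sum was lower in each next bin of all 4 libraries, and in the 10 to 29 and 30 or more bins both nulls lay above both controls. Null replicate 1 was made with another kit than the controls. Null replicate 2 held more neuronal and haemoglobin transcripts in its mesenchymal cells than any other library, and the part of kit and of such transcripts was not tested. Bins of 30 or more held 408 and 399 cells in the controls and 557 and 897 in the nulls, with median depths of 13121 and 8659 UMIs and of 13568 and 14585 UMIs.

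The S genes ended at a higher level than the G2/M genes did in these bins. Their sum was 2802, 1835, 573 and 398 CPM in control replicate 1, 2072, 1120, 530 and 346 CPM in control replicate 2, 3204, 2971, 1060 and 555 CPM in null replicate 1, and 2681, 2253, 881 and 539 CPM in null replicate 2. The S sum was above the G2/M sum in the last bin of each library. Helicase subunits differed among themselves: Mcm3 was at 147 CPM in the first bin and 3.0 CPM in the last bin of control replicate 1, Mcm5 at 148 and 11.7, Mcm7 at 302 and 53.3, and Mcm2 at 86.8 and 39.0. Top2a was at 582 and 4.9 CPM in the same bins. E2f1 was highest in a middle bin, at 86.8, 126, 117 and 40.9 CPM along the bins of control replicate 1, 32.9, 68.5, 60.3 and 23.3 CPM in control replicate 2, 80.1, 123, 176 and 81.0 CPM in null replicate 1, and 107, 152, 152 and 61.6 CPM in null replicate 2. Cdkn1c was at 330, 1678, 4398 and 3183 CPM along the bins of control replicate 1. The share of cells with 5 G2/M UMIs or more was 83.4%, 47.2%, 5.7% and 0.2% in that library and 84.8%, 68.3%, 22.3% and 1.8% in null replicate 1. Bins were defined by measured transcripts of the cells, so these values carry no test.

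**Figure D3:**
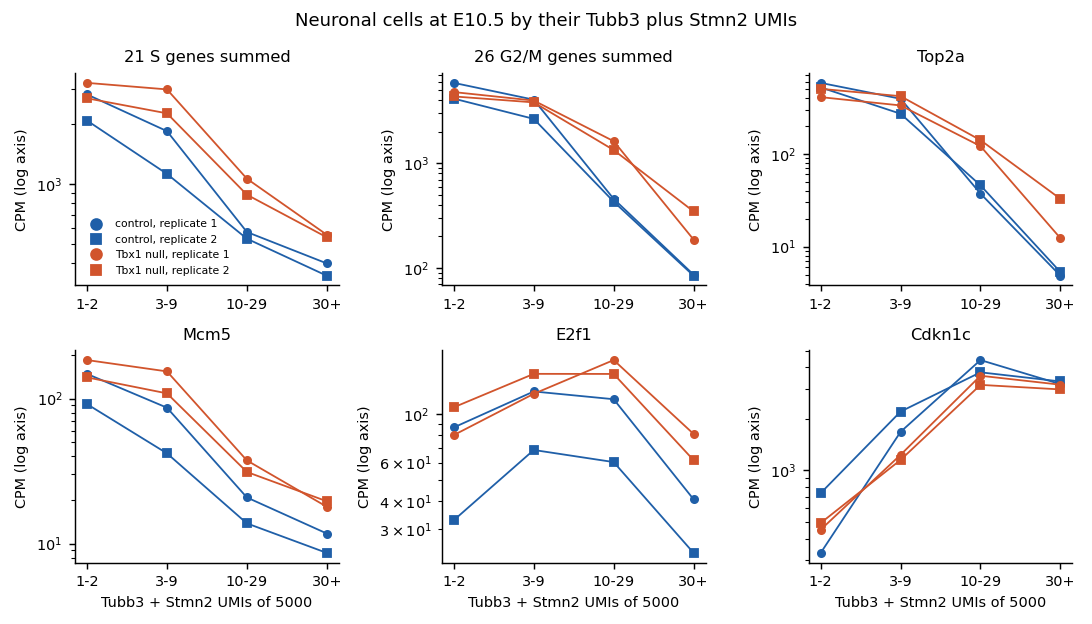
Levels in neuronal cells of E10.5 over 4 bins of Tubb3 plus Stmn2 UMIs (of 5000 per thinned cell), in CPM on a logarithmic axis, with 1 line per library. The sums of S and G2/M genes, Top2a and Mcm5 are lowest in the last bin, E2f1 is highest in a middle bin and Cdkn1c is higher in the later bins than in the first.

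Mesenchymal cells had a lower G2/M sum than neural progenitors of the same library in all 7 libraries, and single genes differed in both directions. In progenitors the G2/M genes summed to 4282 CPM at E8.5, to 4829 and 4890 CPM in control and null of E9.5, to 5183 and 4801 CPM in the controls of E10.5 and to 4550 and 3651 CPM in the nulls, against 4246, 4328 and 4699, 3958 and 4214, and 4278 and 3230 CPM in mesenchymal cells. The S sum was higher in mesenchymal cells in 4 libraries and lower in 3. These sums carry no test. Of the 47 genes, 9 were higher in mesenchymal cells (background 28.5% of genes) and 14 were lower (22.9%), so that 23 were called where 51.4% of all 13269 genes were. The share of the 47 genes called in either direction was thus near that of all genes. Median log2 differences were -0.07 for the S genes, -0.18 for the G2/M genes and 0.05 for all genes, and 20 of the 26 G2/M genes had a difference below 0. Ccne1 was higher, at 113, 174, 84.0 and 66.3 CPM in mesenchymal cells of the controls from E8.5 to E10.5 and at 79.3, 76.3, 62.5 and 31.5 CPM in progenitors of the same libraries (0.61 ± 0.14, adjusted p = 0.0067). The 2 sets of control values overlapped, and Ccne1 was higher in mesenchyme within each of those libraries. In the nulls it was at 152 against 82.3 CPM at E9.5 and at 90.9 against 70.3 CPM in replicate 1 of E10.5, while in replicate 2 the order was reversed, at 59.9 against 63.1 CPM. The checkpoint kinase gene Bub1b (0.34 ± 0.05), Birc5 of the chromosomal passenger complex (0.30 ± 0.03), Ung (0.30 ± 0.11), Cdk1 (0.18 ± 0.05) and Mcm5 (0.14 ± 0.05) were also higher. E2f1 was lower, at 27.5, 30.4, 27.1 and 18.2 CPM in mesenchyme and 29.5, 44.5, 76.9 and 50.5 CPM in progenitors of the controls (-1.09 ± 0.19, adjusted p = 0.0017), and the 2 sets overlapped only through the E8.5 progenitors. Nusap1 (-0.80 ± 0.12), the kinetochore gene Cenpf (-0.78 ± 0.06), E2f8 (-0.65 ± 0.14), Mki67 (-0.52 ± 0.08), Top2a (-0.44 ± 0.07) and Ccnb1 (-0.35 ± 0.06) were lower as well. Pcna (-0.25 ± 0.10), Rrm2 (-0.15 ± 0.06), Ccne2 (-0.16 ± 0.16) and Cdc20 (0.13 ± 0.09) did not pass the test. Among the other lists 3 S genes were higher and 6 lower, and 2 G2/M genes were higher and 11 lower, led by the phosphatase gene Cdc25b (-1.97). Independent neuronal markers were higher in the progenitors of each library. At E10.5 they summed to 62.7 and 64.4 CPM in progenitors of the controls and to 49.3 and 111 CPM in those of the nulls. In mesenchymal cells they summed to 13.8 and 16.0 CPM and to 13.8 and 55.8 CPM, and their part was not tested.

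Sox10 cells, the glial and early crest class, had lower S transcripts than mesenchymal cells of the same library. Of the 47 genes 21 were lower (17 S and 4 G2/M genes) and none was higher, against a background of 29.8% in either direction and 16.7% lower. Rrm2 was at 433 CPM in Sox10 cells of E8.5, 319 and 263 in those of E9.5 and 151, 121, 219 and 114 in those of E10.5, and at 540, 480 and 384, and 304, 237, 438 and 194 CPM in mesenchymal cells. Rrm2 was lower in the Sox10 cells of each library (-0.71 ± 0.09, adjusted p = 0.0019). Ccne1 (-0.48 ± 0.08), the histone mRNA binding protein gene Slbp (-0.42 ± 0.07), Cdc20 (-0.37 ± 0.07), Pcna (-0.29 ± 0.05), Ccne2 (-0.29 ± 0.09), Mcm5 (-0.28 ± 0.04) and E2f1 (-0.17 ± 0.05) also fell. Cenpa, Birc5 and Ccna2 were the other G2/M genes that did. For these 4 G2/M genes the order was reversed at E8.5. There Cdc20 was at 346 CPM in Sox10 and 338 CPM in mesenchymal cells, Cenpa at 354 and 349, Birc5 at 535 and 515, and Ccna2 at 199 and 198. The G2/M sum was also higher in Sox10 cells at E8.5, at 4898 against 4246 CPM, and lower in those of each later library. Mki67 (-0.18 ± 0.14), Top2a (-0.23 ± 0.14), Cdk1 (-0.33 ± 0.12) and Ccnb1 (-0.18 ± 0.11) did not pass the test. The median was -0.24 for S genes and -0.19 for G2/M genes, and -0.03 for all genes. Of the other S genes 15 of 21 were lower, and of the other G2/M genes 1 was higher and 6 were lower of 24. Stress transcripts summed to 205 to 321 CPM in Sox10 cells and to 78.6 to 181 CPM in mesenchymal cells at E10.5. Neural progenitor markers summed at E10.5 to 195 and 256 CPM in Sox10 cells of the controls and to 174 and 268 CPM in those of the nulls, against 80.6, 79.7, 92.6 and 130 CPM in mesenchymal cells. The 2 classes were less distinct early: at E8.5 the crest receptor gene Erbb3, which no gate used, was at 16.6 CPM in Sox10 and 12.9 CPM in mesenchymal cells, and mesenchymal markers summed to 131 and 168 CPM. At E9.5 Fabp7, a glial marker, was at 67.6 and 71.0 CPM in Sox10 cells and at 559 and 637 CPM in progenitors, while the crest gene Foxd3 was at 65.8 and 94.6 against 0.72 and 1.3 CPM. The part of these transcripts in the result was not tested. Leaving out 1 library gave 14 to 25 called genes, where 16.3% to 35% of all genes were called.

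Within the mesenchyme, cells were split after thinning by Acta2 and Tagln (smooth muscle genes), then by Foxf1, then by genes of Hox group 3, then by Hoxa2. The study finds Hoxa2 in the second arch and in more caudal arches, so Hoxa2 cells are not all of the second arch. The remainder, called Hox-negative, had no UMI of these Hox genes after thinning, which does not assign them to the first arch. Acta2/Tagln cells stood apart. They were compared with Hoxa2 cells in the 2 control libraries of E10.5, the ones with 30 or more such cells (47 and 95 cells). Of the 47 genes 43 were lower (18 S and 25 G2/M genes), against a background of 41.2% of 12071 genes in either direction and 19.4% lower. Median log2 differences were -0.70 for the S genes, -1.11 for the G2/M genes and -0.03 for all genes. Rrm2 was at 87.7 and 89.2 CPM in Acta2/Tagln cells and at 312 and 249 CPM in Hoxa2 cells of the same libraries (-1.55 ± 0.11, adjusted p = 4.1e-10). The mitotic kinase gene Aurka was at 21.0 and 28.8 against 74.1 and 77.6 CPM (-1.48 ± 0.15), Ccne1 at 24.6 and 27.9 against 89.9 and 68.5 CPM (-1.44 ± 0.16), and the spindle motor gene Kif11 at 24.6 and 30.6 against 68.5 and 87.8 CPM (-1.41 ± 0.14). None of these pairs of values overlapped. Top2a (-1.35 ± 0.10), Mki67 (-1.25 ± 0.11), Ccnb1 (-1.22 ± 0.12), Cdc20 (-1.10 ± 0.11), Pcna (-0.98 ± 0.09), Mcm5 (-0.98 ± 0.11), E2f1 (-0.73 ± 0.22) and Cdk1 (-0.68 ± 0.09) fell as well. Ccne2 (-0.08 ± 0.19) and Anln (-0.23 ± 0.17) did not pass the test. The 6 helicase subunits, named together after their values were seen, had unlike differences, and the differences between subunits were not tested. Mcm7 was at 80.4 and 84.2 CPM in Acta2/Tagln cells against 214 and 182 CPM in Hoxa2 cells (-1.15 ± 0.11), while Mcm6 (-0.48 ± 0.10) and Mcm3 (-0.47 ± 0.10) fell by less, and Mcm2 (-0.25 ± 0.12, adjusted p = 0.12) and Mcm4 (-0.16 ± 0.11, 0.24) missed the threshold.

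All 21 other S genes and all 24 other G2/M genes were lower in the Acta2/Tagln cells, led by the thymidine kinase gene Tk1 (-1.58) and by Cdc25b (-1.49). Cdc25b was near the floor in these cells, at 2.90 and 3.20 CPM. The inhibitor gene Cdkn1c was at 2351 and 2107 CPM in Acta2/Tagln cells and at 267 and 266 CPM in Hoxa2 cells (3.15 ± 0.09), and Btg2 (1.86) and Btg1 (0.39) were higher too. At least 5 G2/M UMIs were found in 44.7% and 44.2% of Acta2/Tagln cells and 5 S UMIs in 66.0% and 69.5%. Heart muscle markers summed to 1237 and 6.33 CPM in the Acta2/Tagln cells and to 0.87 and 1.80 CPM in Hoxa2 cells, epithelial markers to 167 and 105 against 7.7 and 4.3 CPM, and stress genes to 269 and 286 against 107 and 89.7 CPM. Without cells holding 3 or more heart muscle UMIs 43 genes were again called, and with a gate of 5 Acta2 and Tagln UMIs also 43. Endothelial markers summed to 54.5 and 55.4 CPM in the Acta2/Tagln cells and to 1.41 and 1.0 CPM in Hoxa2 cells, those of neural progenitors to 299 and 353 against 75.6 and 78.6 CPM, those of the Foxf1 group to 475 and 480 against 73.9 and 85.9 CPM, those of the Hox 3 group to 116 and 142 against 69.4 and 45.04 CPM, and those of mesenchyme to 1445 and 1007 against 376 and 317 CPM. Neuronal markers (10.9 and 14.2 against 10.7 and 12.9 CPM) and haemoglobin transcripts (at most 0.527 against at most 1.12 CPM) were at like levels. Erbb3, a gene of Sox10 cells, was at 47.8 and 58.5 CPM in the Acta2/Tagln cells and at 0.40 and 0.36 CPM in Hoxa2 cells, Fabp7 at 4.19 and 3.69 against 6.18 and 3.23 CPM, and Foxd3 at 0 in both libraries against 0 and 0.080 CPM. The part of all these transcripts other than those of heart muscle was not tested. With 2 libraries, leaving 1 out could not be run.

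For the 47 genes the other mesenchymal groups were close to the Hoxa2 group. Groups were gated on 1 UMI or more after thinning, so a cell with an undetected transcript falls into another group. In the controls of E10.5 Hox 3 group markers summed to 54.2 and 46.2 CPM in Hox-negative against 69.4 and 45.04 CPM in Hoxa2 cells. Hox 3 cells had 204 and 179 CPM. Foxf1 group markers summed to 135 and 147 against 73.9 and 85.9 CPM, and to 319 and 334 CPM in Foxf1 cells. How far such mixing made the differences smaller was not tested. None of the 47 genes was called between Foxf1 and Hoxa2 cells by edgeR or by DESeq2, where 6.13% of all genes were called by edgeR (3.87% higher and 2.26% lower), and 5 of the 47 (10.6%) had an unadjusted p under 0.05, against 2170 of 10974 genes (19.8%). Without the null library of E9.5 1 gene was called, where 7.36% of all genes were. In Hox 3 cells 3 S genes were lower, where 7.3% of genes were called in either direction and 3.16% lower: the helicase factor gene Gins2 (-0.18 ± 0.04), Pcna (-0.13 ± 0.03) and Slbp (-0.10 ± 0.03). At an unadjusted p under 0.05 were 14 of the 47 genes (29.8%), against 21% of all genes, and 19 of the 21 S genes had a difference below 0 (median -0.08, and -0.01 for all genes), against 13 of the 26 G2/M genes. The number called was 7 without the control of E9.5 and 1 without either control or null replicate 1 of E10.5, where 8.39% and 4.04% to 4.53% of all genes were called. In Hox-negative cells Ung was higher (0.18 ± 0.04, adjusted p = 0.025), where 1% of genes were called. The count was 2 without the control of E9.5 and 0 without control replicate 2 of E10.5, without the null of E9.5 or without either null of E10.5, where 0.844% and 0.335% to 1.23% of all genes were called. Over 11 genes named in each comparison (Mki67, Top2a, Cdk1, Ccnb1, Cdc20, Pcna, Mcm5, Rrm2, Ccne1, Ccne2 and E2f1) the log2 differences ran from -0.12 (Pcna) to 0.11 (Ccne2) in Foxf1 cells, from -0.13 (Rrm2) to -0.01 (Top2a) in Hox 3 cells and from -0.11 (Top2a) to 0.10 (Ccne2) in Hox-negative cells.

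Between E9.5 and E10.5 the genes that passed the test in mesenchymal cells were mostly S genes, and all of them fell. In a fit of stage and genotype over 6 libraries, 7 of the 47 genes were lower at E10.5 (6 S genes and 1 G2/M gene) and none was higher, where 30.5% of all 15869 genes were called in either direction and 14.1% lower. The median log2 difference was -0.45 for S genes, -0.16 for G2/M genes and 0.08 for all genes. The share of the 47 genes called lower was near that of all genes. Levels of 18 of the 47 genes did not overlap between the stages, against 53.2% of all genes, with 15 lower (26.5% of all genes) and 3 higher (26.7%).

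Ung was at 129 and 99.8 CPM in control and null of E9.5 and at 52.6, 38.5, 58.0 and 32.6 CPM in the 2 controls and 2 nulls of E10.5 (-1.32 ± 0.24, adjusted p = 0.0046). Ccne1 was at 174 and 152 CPM and then at 84.0, 66.3, 90.9 and 59.9 CPM (-1.11 ± 0.21, adjusted p = 0.0047), and Pcna at 375 and 441 CPM and then at 280, 233, 265 and 148 CPM (-0.82 ± 0.25, 0.034). For all 3 genes each library of E10.5 lay below both of E9.5. Cdc20 was at 311 and 307 CPM and then at 176, 137, 239 and 160 CPM (-0.80 ± 0.22, adjusted p = 0.023). Cdc6 (-0.71 ± 0.23), the chromatin remodeller gene Hells (-0.65 ± 0.18) and Mcm7 (-0.60 ± 0.19) were the others that fell. Cdk1, at 322 and 408 CPM and then at 248, 189, 305 and 129 CPM, did not pass the test (-0.73 ± 0.31, adjusted p = 0.11). Values that missed the threshold pointed both ways among the G2/M genes, with Top2a at 275 and 319 CPM and then at 400, 531, 355 and 412 CPM (0.52 ± 0.22, 0.10), Mki67 at 127 and 144 CPM and then at 173, 232, 131 and 165 CPM (0.36 ± 0.23, 0.25), and Ccnb1 at -0.38 ± 0.23. Rrm2 (-0.55 ± 0.31), Ccne2 (-0.50 ± 0.20), Mcm5 (-0.45 ± 0.23) and E2f1 (-0.15 ± 0.21) did not pass either. At E8.5, with another kit and 1 library, Mki67 was at 49.3 CPM and Top2a at 231 CPM, below all later libraries, and Cdc20 was at 338 CPM and Pcna at 597 CPM, above all of them.

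The number of genes called between the stages rested on few libraries. It was 0 without the control of E9.5, 2 without the null of E9.5, 4 and 2 without control replicates 1 and 2 of E10.5, and 22 without null replicate 1 of E10.5. Of all genes 4.26%, 10.1%, 20.1% and 19.9%, and 42.3% were called in these fits. The count was 15 with the controls alone and 12 with DESeq2, where 33.4% and 35.2% of all genes were called. Of the other S genes 8 of 21 were lower, led by Dut and Orc1 (both -0.91), and of the other G2/M genes 2 of 24, Cks2 (-0.78) and Mybl2 (-0.60). Of the inhibitors 7 of 10 were higher, among them Gadd45g (3.05 ± 0.58), Cdkn2b (2.65), Cdkn2c (1.15) and Btg1 (1.05). Cdkn2b and Cdkn2c were near the floor. Cdkn2b was at 0.51 and 0.44 CPM at E9.5 and at 1.6 to 4.8 CPM at E10.5, and Cdkn2c at 0.42 and 0.43 and then at 0.76 to 1.1 CPM. Stress genes summed to 31.5 and 36.4 CPM in mesenchymal cells at E9.5 and to 78.6 to 181 CPM at E10.5. In the same cells neuronal markers went from 5.49 and 4.87 CPM to 13.8 and 16.0 CPM in the controls and 13.8 and 55.8 CPM in the nulls, neural progenitor markers from 52.0 and 50.8 CPM to 79.7 to 130 CPM, and markers of the Foxf1 group (Hand2, Isl1 and Gata3) from 39.7 and 49.1 CPM to 136 to 167 CPM. Markers of the Acta2/Tagln group (Cnn1, Myl9, Myh11 and Actg2) went from 22.8 and 16.1 CPM to 44.8 to 95.3 CPM, and mesenchymal markers from 176 and 180 CPM to 350 to 515 CPM. Erbb3 went from 4.11 and 3.74 CPM to 0.54 to 2.35 CPM. The make-up of the class differed too: Hox-negative cells were 3613 of 4375 and 4982 of 5979 mesenchymal cells in control and null of E9.5. At E10.5 they were 1398 of 2812 and 3534 of 6254 in the controls and 835 of 2253 and 398 of 1125 in the nulls. The part of these transcripts and of the make-up was not tested.

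**Figure D4:**
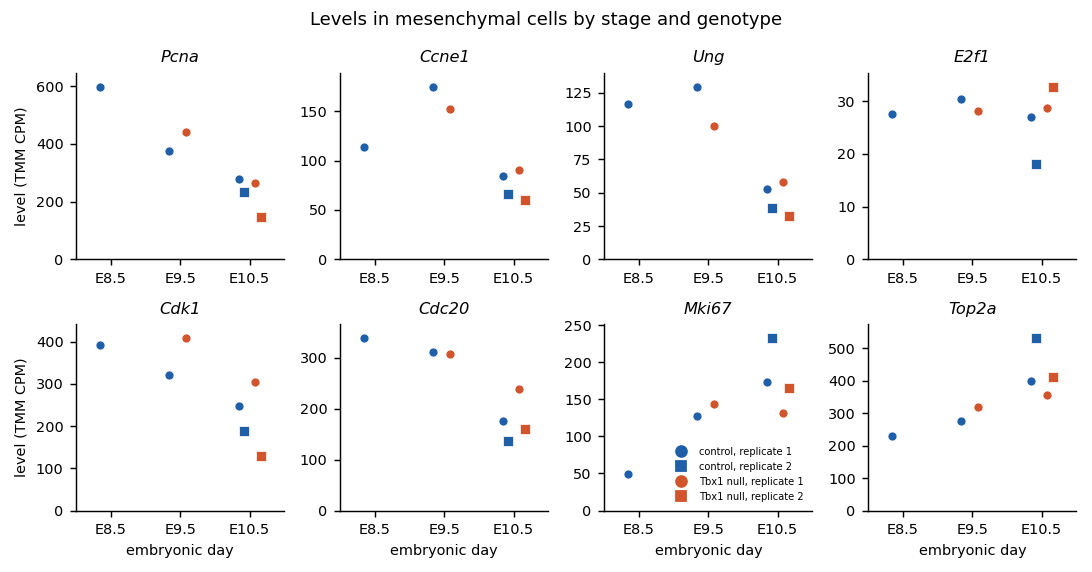
Levels of 8 genes in mesenchymal cells by stage, in TMM-scaled CPM, with 1 point per library and controls and nulls marked apart. Pcna, Ccne1, Ung and Cdc20 are lower in all 4 libraries of E10.5 than in both of E9.5, and Top2a is higher.

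In neural progenitors E2f1 was higher at E10.5, at 76.9, 50.5, 84.3 and 96.5 CPM against 44.5 and 46.0 CPM at E9.5 (0.72 ± 0.20, adjusted p = 0.035), and the stages did not overlap. In the same cells neuronal markers summed to 62.7, 64.4, 49.3 and 111 CPM at E10.5 against 25.9 and 24.3 CPM at E9.5, stress genes to 117, 87.1, 64.8 and 124 against 48.8 and 63.7 CPM, and neural progenitor markers to 1492, 1270, 1276 and 1423 against 754 and 706 CPM, and their part was not tested. Ung (-0.69 ± 0.20) and Gins2 (-0.64 ± 0.18) were lower. These were the only 3 of the 47 genes called, where 10.8% of all 13602 genes were (5.98% higher and 4.84% lower). Levels of 21 did not overlap against 41.8% of all genes, with 14 lower (20% of all genes) and 7 higher (21.8%). Median differences were -0.21 for S genes, -0.12 for G2/M genes and 0.06 for all genes. Mki67 (0.31 ± 0.19), Top2a (0.47 ± 0.19), Cdk1 (-0.60 ± 0.25), Ccnb1 (-0.21 ± 0.21), Cdc20 (-0.42 ± 0.17), Pcna (-0.35 ± 0.22), Mcm5 (-0.40 ± 0.22), Rrm2 (-0.28 ± 0.26), Ccne1 (-0.52 ± 0.22) and Ccne2 (0.16 ± 0.20) did not pass the test. The count was 0 without either library of E9.5, 1 without control replicate 2 of E10.5 and 9 without null replicate 1 of E10.5, where 1.16% and 2.79%, 8.49%, and 19.7% of all genes were called.

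Null and control cells of E10.5 were compared with 2 libraries each. None of the 47 genes was called in mesenchymal cells as a whole, in Foxf1 or Hox 3 mesenchyme, in neural progenitors, in neuronal cells or in Sox10 cells, by edgeR or by DESeq2. Of all genes edgeR called 0.152%, 0.65%, 0.0722%, 0.0314%, 0% and 0.108% in these 6 comparisons. At an unadjusted p under 0.05 the counts of the 47 genes were 2, 9, 3, 4, 5 and 7, or 4.26%, 19.1%, 6.38%, 8.51%, 10.6% and 14.9%, against 12.3%, 12.9%, 10.5%, 7.73%, 8.25% and 11.3% of all genes. In mesenchymal cells the median log2 difference was 0.00 for S genes, -0.21 for G2/M genes and -0.01 for all genes, and in progenitors 0.14 for S genes and -0.27 for G2/M genes. The direction of these medians rested on 1 library. Over the 47 genes the median was -0.07 in mesenchymal cells, -0.13 in progenitors, -0.09 in Hox 3 mesenchyme and -0.01 in Sox10 cells, and without null replicate 2 it was 0.15, 0.09, 0.17 and 0.15.

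The 2 null libraries often lay on either side of the controls. Scaled within this comparison, Cdk1 in mesenchymal cells was at 273 and 212 CPM in the controls and at 339 and 136 CPM in the nulls (-0.02 ± 0.40, adjusted p = 0.99). Rrm2 was at 334 and 265 CPM against 487 and 206 CPM (0.22 ± 0.38), and Mcm5 at 169 and 121 CPM against 205 and 127 CPM (0.21 ± 0.29). For Cdk1 and Rrm2 null replicate 1 was the highest and null replicate 2 the lowest of the 4. The genotypes also overlapped for Ccnb1 (0.21 ± 0.31), Cdc20 (0.34 ± 0.28), Pcna (-0.32 ± 0.31) and Ccne1 (0.00 ± 0.27). Levels of 16 of the 47 genes did not overlap between genotypes, 14 of them lower in the nulls and 2 higher, against 46% of all genes (25.3% lower and 20.7% higher). The make-up of the class also differed: Hox 3 cells were 398 of 2812 and 808 of 6254 mesenchymal cells in the controls and 659 of 2253 and 383 of 1125 in the nulls. Markers of the Hox 3 group (Tbx2, Tbx3 and Meox1) summed in mesenchymal cells to 82.3 and 65.6 CPM in the controls and to 169 and 151 CPM in the nulls, and neural progenitor markers to 80.6 and 79.7 against 92.6 and 130 CPM, and their part was not tested. Among the genes that did not overlap were Top2a, at 440 and 595 CPM in controls and 395 and 437 CPM in nulls (-0.29 ± 0.26), Mki67, at 190 and 260 CPM in controls and 146 and 175 CPM in nulls (-0.47 ± 0.25, adjusted p = 0.50), Ccne2, at 21.2 and 30.0 against 20.7 and 17.5 CPM (-0.40 ± 0.24), and E2f1, at 29.8 and 20.4 against 32.0 and 34.6 CPM (0.43 ± 0.25). Chosen after their values were seen, Hells was at 161 and 185 against 99.2 and 117 CPM (-0.66 ± 0.23, adjusted p = 0.33), E2f8 at 12.7 and 15.3 against 9.1 and 7.8 CPM (-0.71 ± 0.22, 0.30), Cenpf at 306 and 426 against 249 and 243 CPM, and the spindle gene Hmmr at 95.7 and 124 against 88.1 and 69.4 CPM. Both nulls were below both controls for these 4 genes.

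In progenitors 18 of the 47 genes did not overlap, 15 of them lower in the nulls and 3 higher, against 39.4% of all genes (20.5% lower and 18.9% higher). Mki67 was at 364 and 356 CPM in controls and 219 and 248 CPM in nulls (-0.63 ± 0.23, adjusted p = 0.58), and Cenpf at 679 and 704 against 412 and 409 CPM (-0.76 ± 0.24, 0.53). Neither passed the test although the groups lay apart. In neuronal cells the 12 genes that did not overlap were all higher in the nulls (background 42.1% in either direction, 22.2% higher and 19.8% lower), among them Ccne1, at 28.3 and 15.4 CPM in controls and 48.9 and 38.5 CPM in nulls (0.96 ± 0.31, adjusted p = 0.59), and the medians were 0.65 for S genes and 0.27 for G2/M genes. Independent neuronal markers summed to 1101 and 1735 CPM in the neuronal cells of the controls and to 697 and 1130 CPM in those of the nulls, and their part was not tested. In Foxf1 mesenchyme 22 genes did not overlap (44.8% of all genes), 11 in each direction (22.2% higher and 22.6% lower). The median there was 0.37 for S genes, with 17 of 21 above 0, and -0.13 for G2/M genes, with 18 of 26 below 0, against 0.01 for all genes. Neural progenitor markers summed in these cells to 53.6 and 54.5 CPM in the controls and to 84.9 and 120 CPM in the nulls. Hox 3 group markers summed to 70.4 and 61.8 against 121 and 113 CPM, and the part of these transcripts was not tested. In Hox 3 mesenchyme 12 did not overlap (43.8%), 11 lower (23.5%) and 1 higher (20.3%), and in Sox10 cells 12 (40.8%), 8 lower (21.1%) and 4 higher (19.7%). Over the same 11 genes the log2 differences between genotypes ran from -0.63 (Mki67) to 0.47 (E2f1) in progenitors, from -0.13 (Mki67) to 0.96 (Ccne1) in neuronal cells, from -0.62 (Mki67) to 0.72 (Rrm2) in Foxf1 mesenchyme, from -0.55 (Ccne2) to 0.47 (E2f1) in Hox 3 mesenchyme and from -0.77 (Mki67) to 0.57 (Cdc20) in Sox10 cells, and none passed the test. A test of whether the genotype difference itself differed between mesenchymal cells and progenitors called none of the 47 genes and 0.421% of all genes (edgeR), with 10 of the 47 (21.3%) at an unadjusted p under 0.05, against 6.9% of all genes, and the lowest adjusted p at 0.32 for Gins2.

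In 4 of the 6 comparisons the count of 0 changed when 1 library was left out, while in progenitors and Sox10 cells it was 0 without any 1 library. Leaving out a null library also raised the share of all genes called. In mesenchymal cells Pcna was lower without null replicate 1 (-0.80, adjusted p = 0.046), and without null replicate 2 Hells was lower (-0.80, 0.044) and the cyclin gene Ccna2 higher (0.77, 0.042), where 5.53% and 5.69% of all genes were called. In Foxf1 mesenchyme E2f1 was higher without null replicate 1 (0.90), where 3.38% of all genes were called. Without null replicate 2, 9 genes were called there, among them Rrm2 (1.11), Mcm2 (0.96) and Mcm5 (0.79), which were higher, and Mki67 (-1.04) and Cenpf (-0.96), which were lower, where 10.1% of all genes were called. In Hox 3 mesenchyme Pcna (-0.78), Cdk1 (-0.84), E2f8 (-0.94), Hmmr (-0.76) and Birc5 (-0.67) were lower without null replicate 1, and 7 genes were called without null replicate 2, of which Hells was lower (-0.85) and the others, Ccna2, Ccnb1, Rrm2, Mcm2, Cdc20 and Aurka, were higher by 0.61 to 0.87. Of all genes 7.06% and 9.6% were called there. In neuronal cells 10 genes were called without control replicate 1, all higher, with Ung at 1.88 and Rrm2 at 1.71, where 1.35% of all genes were called higher. These genes were named after their values were seen. The 2 nulls were made with different kits, so kit and replicate cannot be told apart.

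**Figure D5:**
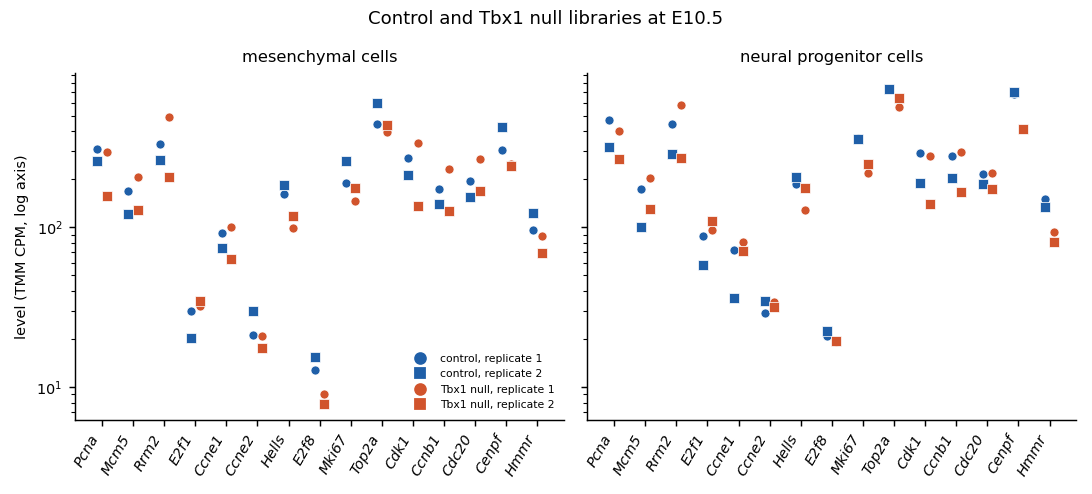
Levels of 15 genes in mesenchymal cells and in neural progenitors of E10.5 (CPM scaled within each comparison), with 1 point per control and null library. None of these genes passed the test, Cdk1 and Rrm2 show 1 null library above and 1 below both mesenchymal controls, and Mki67 and Cenpf are lower in both nulls.

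At E9.5 there was 1 library of each genotype, so the difference has no replicate check, and the libraries also differed in kit (v3.1 for the control and v3 for the null). In mesenchymal cells 16 of the 21 S genes were lower and 21 of the 26 G2/M genes were higher in the null library, with median log2 ratios of -0.17 for S genes, 0.16 for G2/M genes and -0.02 for all genes. Past 1.5-fold were 3 genes, all S genes and all lower, where 3.22% of 7287 genes were past 1.5-fold in either direction. Ccne2 was at 39.1 CPM in the control (exact 95% Poisson interval 37.8 to 40.4, counting error only) and at 20.9 CPM in the null (20.1 to 21.8). Cdc6 was at 60.1 and 39.1 CPM and Hells at 243 and 159 CPM. Anln, an actin scaffold of the cleavage furrow, was at 22.2 and 28.9 CPM, Cdk1 at 322 and 408 CPM, Kif11 at 38.3 and 48.6 CPM and Bub1b at 57.6 and 72.6 CPM, the largest ratios upward. Top2a was at 275 and 319 CPM, Mki67 at 127 and 144 CPM, Ccnb1 at 186 and 213 CPM, Pcna at 375 and 441 CPM, Mcm5 at 208 and 180 CPM, Rrm2 at 480 and 384 CPM, Ccne1 at 174 and 152 CPM, E2f1 at 30.4 and 28.1 CPM and Cdc20 at 311 and 307 CPM. Medians for S and G2/M genes were -0.16 and 0.36 in Hoxa2 mesenchyme, -0.02 and 0.15 in Foxf1 mesenchyme, -0.17 and 0.14 in Hox-negative mesenchyme, -0.21 and 0.20 in Hox 3 mesenchyme, -0.17 and 0.13 in Sox10 cells, 0.01 and 0.00 in progenitors and -0.10 and 0.00 in neuronal cells.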

How the data were processed

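The deposited UMI counts per gene and cell barcode, made by the authors with Cell Ranger 6.0.1 on mm10, were used as 7 filtered matrices. Barcodes were kept from 1000 detected genes upward and up to 10% mitochondrial UMIs (69.7% to 93.3% of barcodes), and doublets were removed with Scrublet in scanpy 1.11.5 at 0.8% per 1000 barcodes. A class needed at least 3 UMIs of its markers and at least 3 times those of the competing class. Mesenchymal groups and shares used cells thinned to 5000 UMIs, with at least 10 UMIs of Acta2 and Tagln or at least 1 of a Hox gene or Foxf1. Raw counts were summed per library and class (30 or more cells) and tested over all genes with edgeR 4.0.16 in R 4.3.3 (TMM, filterByExpr, quasi-likelihood test, Benjamini-Hochberg adjusted p under 0.05). Genotype was tested within E10.5, stage with genotype as a term, and classes with the library as a block. Standard errors are the log2 difference divided by the root of the F statistic. DESeq2 1.42.0 and other settings were alternatives. The test was checked on simulated data. Cell markers did not include any of the 47 genes.

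The 47 genes and the other lists (other S genes, other G2/M genes, G1 genes and inhibitors) were chosen with earlier results of these data known. All 47 could be named. For each comparison the text gives the 4 called genes with the largest rise and the 4 with the largest fall, and always Mki67, Top2a, Cdk1, Ccnb1, Cdc20, Pcna, Mcm5, Rrm2, Ccne1, Ccne2 and E2f1, as a range where few or no genes were called, and up to 4 called genes of each other list. Libraries are pools of embryos, and where nothing says that replicates came from separate litters, p-values measure only the spread between these libraries. The title of the control library taken as replicate 2 of E10.5 also reads R1. Poisson and binomial intervals cover counting error only. Promoter windows were taken from RefSeq tables of GRCm38.p6, and 38 of 41 matched the annotated transcript. Some genes of the lists are not reported here.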

Additional observations from a re-analysis of the deposited data

How the results depend on the processing

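Of 425 recomputed values 346 kept their direction and their side of the threshold or stayed within 1.5 times the count. The number of the 47 genes called between stages in mesenchymal cells (7) was 12 with DESeq2, 16 without a filter on low counts, 15 with controls only and 0 to 22 with 1 library left out. In progenitors (3) it was 8 with DESeq2, 6 without the filter, 1 with a filter of 200 genes and 5% mitochondrial UMIs and 0 to 9 with 1 library left out. Foxf1 against Hoxa2 mesenchyme (0) gave 1 without the filter and 0 to 1 with 1 library left out. Hox 3 against Hoxa2 mesenchyme (3) gave 1 with DESeq2, 1 with groups gated on unthinned counts and 1 to 7 with 1 library left out. Hox-negative against Hoxa2 mesenchyme (1) gave 2 with DESeq2 size factors, 2 with the other cell filter, 2 with thinned counts, 0 with unthinned gating and 0 to 2 with 1 library left out.

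Between genotypes at E10.5 (0 genes in each of the 6 comparisons) leaving out 1 library gave 0 to 2 in mesenchymal cells, 0 to 9 in Foxf1 mesenchyme, 0 to 7 in Hox 3 mesenchyme and 0 to 10 in neuronal cells, where no filter gave 1. With the replicate number as a block the count was 4 in Foxf1 mesenchyme, 2 in progenitors and 1 in Sox10 cells, where 6.79%, 1.3% and 2.2% of all genes were called. The replicate numbers are shared by only 2 pairs of libraries, with correlations of 0.146 to 0.263 between their deviations over all genes. Over the 47 genes the correlation was 0.657 in mesenchymal cells, 0.586 and 0.438 in Foxf1 and Hox 3 mesenchyme, 0.427 in progenitors, 0.444 in neuronal cells and 0.047 in Sox10 cells. Nothing says that they mark a shared day, so the block is given as a setting only. In fits that leave a group with 1 library, that library is assumed to vary like the others.

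The median log2 difference over the 47 genes changed sign in the following settings. For Foxf1 against Hoxa2 mesenchyme it became 0.0023 with the other cell filter and 0.0042 without control replicate 2 of E10.5. For Hox-negative against Hoxa2 mesenchyme it became 0.051 without the filter on low counts, 0.0045 without control replicate 1 and 0.014 without null replicate 1 of E10.5. Between genotypes it became -0.039 in Foxf1 mesenchyme with the other cell filter and -0.0093 without null replicate 1, 0.033 in Sox10 cells without control replicate 2, and, without null replicate 2, 0.17 in Hox 3 mesenchyme, 0.15 in Sox10 cells, 0.15 in mesenchymal cells and 0.090 in progenitors. Over all fits without 1 library these medians reached -0.30 in mesenchymal cells, 0.21 in Foxf1 mesenchyme, -0.34 in Hox 3 mesenchyme, -0.19 in progenitors and -0.35 in Sox10 cells on the other side, and -0.019 for Hox-negative mesenchyme. The medians with all libraries lay between -0.127 and 0.025. At E9.5 the median log2 ratio (0.0194) was 0.0888 with CPM by total counts and 0.011 with doublets kept.

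The mean share of mesenchymal cells of the E10.5 controls with 5 or more S UMIs (91.7%) was 97.8% at 3 or more, 62.9% at 10 or more, 16.7% at 20 or more, 73.3% in cells thinned to 3000 UMIs, 98.7% without thinning and 93.1% with the other cell filter. The share for G2/M UMIs (86.4%) was 90.9%, 71.0%, 39.3%, 76.0%, 93.2% and 89.5% in the same order and 87.3% with doublets kept. The settings of 20 or more UMIs, of an Acta2 and Tagln gate of 5 UMIs and of leaving out cells with heart muscle UMIs were added after seeing the data.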

Other observations

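Outside the 47 genes, levels among the most like the summed S genes over 28 sums of a library and class were those of Eed, a Polycomb gene (Spearman correlation 0.964), of Mad2l1, a spindle checkpoint gene (0.957), of Fen1, a replication nuclease (0.953), and of Tuba1b, a tubulin (0.952). For the summed G2/M genes they were Cdca3 (0.944), Kif22 (0.908), Ncapg (0.904), Smc2 and Bri3bp (both 0.894). The correlations were computed over 7607 genes, the sums of a library share its depth and kit, and the values are descriptions with no test.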
